A study of Homo sapiens with 2 samples.

Results

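The distal short arm of chromosome 7 was described as the genes whose deposited locus starts below 20 Mb of chromosome 7 (GRCh38), in 2 cultured human leukaemia lines. The rule takes 321 of the 60586 rows of the deposited table, and the other 2690 rows of chromosome 7 serve for comparison. The region was chosen because its genes were higher in K562 than in MOLT4, so the direction and size of that difference are a description here and were not tested. K562 is a line from a chronic myeloid leukaemia with erythroid traits, labelled erythrocyte, and MOLT4 is a line from a T cell acute lymphoblastic leukaemia, labelled T lymphoblast. Both were cultured without a listed treatment in DMEM that held 10% FBS and 1% antibiotics, and total RNA came from 1 flask per line. Each line is a single cancer cell line and not a normal erythroid or T cell. The deposited table holds 1 FPKM value (fragments scaled to transcript length and to sequencing depth) per gene and line, so replicate spread is unknown, although the series' design text mentions 3 biological replicates.

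Genes that sit next to each other on a chromosome need not share a function, and this end of chromosome 7 is an example. Its outer part is dense with genes that most cells use, among them genes of the actin cytoskeleton, of translation initiation, of DNA mismatch repair and of vesicle traffic. Farther inward the genes are long and sparse, and many of them, such as those of developmental transcription factors and secreted proteins, are used in a few tissues. RNA abundance of each gene was measured here, and DNA was not analysed.

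Promoter sequences are shown for a run of neighbours with unequal behaviour and for a gene with the opposite direction. TMEM106B, VWDE and SCIN follow each other among the measured genes, with unmeasured genes between VWDE and SCIN. TMEM106B was present in both lines, and VWDE and SCIN were at 0 or near 0 in MOLT4. TTYH3 was the measured gene with the lowest log2 ratio of K562 to MOLT4 after 1 FPKM was added to each value. By plain fold SLC29A4 was lower still, 7.05-fold higher in MOLT4 against 6.37-fold for TTYH3. The fold of SLC29A4 rests on a low K562 value, 0.316 FPKM. The sequences are RefSeq's on GRCh38.p14, 5′ to 3′ on the strand of the gene, from 250 bases before to 50 bases after its start. Capitals mark the GC-box letters GGGCGG and the TATA-box letters TATAAA on either strand.
TMEM106B: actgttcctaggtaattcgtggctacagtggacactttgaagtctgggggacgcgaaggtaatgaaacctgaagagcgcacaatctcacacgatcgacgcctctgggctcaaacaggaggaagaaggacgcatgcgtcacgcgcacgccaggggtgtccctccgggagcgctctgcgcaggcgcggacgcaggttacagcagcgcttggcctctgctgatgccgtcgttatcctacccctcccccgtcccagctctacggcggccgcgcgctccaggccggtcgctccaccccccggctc
VWDE: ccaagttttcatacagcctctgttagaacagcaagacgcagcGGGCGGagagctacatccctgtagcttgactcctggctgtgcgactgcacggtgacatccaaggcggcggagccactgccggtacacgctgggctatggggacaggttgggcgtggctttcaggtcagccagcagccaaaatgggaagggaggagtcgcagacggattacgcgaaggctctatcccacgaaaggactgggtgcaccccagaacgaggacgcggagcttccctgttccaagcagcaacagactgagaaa
SCIN: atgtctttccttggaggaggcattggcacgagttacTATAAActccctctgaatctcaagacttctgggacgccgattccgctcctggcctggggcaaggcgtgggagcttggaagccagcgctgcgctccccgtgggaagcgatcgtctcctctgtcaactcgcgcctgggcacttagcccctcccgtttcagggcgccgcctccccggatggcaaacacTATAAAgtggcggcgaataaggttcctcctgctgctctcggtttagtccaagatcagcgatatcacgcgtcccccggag
TTYH3: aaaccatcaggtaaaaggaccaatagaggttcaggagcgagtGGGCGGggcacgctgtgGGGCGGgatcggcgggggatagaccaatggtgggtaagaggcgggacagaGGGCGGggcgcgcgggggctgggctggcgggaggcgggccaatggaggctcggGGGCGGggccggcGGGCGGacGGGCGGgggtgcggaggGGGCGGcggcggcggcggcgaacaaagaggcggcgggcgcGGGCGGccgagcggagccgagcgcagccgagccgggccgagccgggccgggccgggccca

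The windows lie at chr7:12211044-12211343 (plus strand) for TMEM106B, chr7:12403816-12404115 (minus strand) for VWDE, chr7:12570470-12570769 (plus strand) for SCIN and chr7:2631736-2632035 (plus strand) for TTYH3. TTYH3 holds 8 GC boxes and VWDE holds 1, and GGGCGG occurs on either strand in 45.0% of the 35116 promoters of the same length. SCIN holds 2 TATA boxes, a motif found in 11.5% of those promoters, and TMEM106B holds neither motif. The window of TTYH3 has 42 CpG pairs and 77.7% G and C, against 30 pairs and 64.0% in TMEM106B, 18 and 59.0% in VWDE, and 23 and 59.7% in SCIN. The letters AGATAA of a GATA motif and CCACACCC of a CACCC box, searched on both strands, occur in none of the 4 windows, against 10.3% and 3.28% of all promoters. These are matches of letters and not shown sites. A comparison of promoter composition over the region is void, since 60.2% of its measured genes have an entry in the promoter table, under the 80% required.

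Of the 321 genes, 109 are annotated as protein-coding in GENCODE release 29, 53 as processed pseudogenes, 51 as lincRNA and 39 as antisense, and 14 were not matched. A total of 122 genes were listed at 0 in both lines. Genes whose mean of both lines reached 1 FPKM were taken as measured, which held for 88 genes, 70 of them protein-coding. Of these 88, 18 were under 1 FPKM in MOLT4 and 1 was under 1 FPKM in K562, so they passed through the other line and their direction follows from the filter. The remaining 69 reached 1 FPKM in both lines.

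The measured genes of distal 7p were for the most part listed higher in K562. Ratios are given as log2((K562 + 1)/(MOLT4 + 1)) of FPKM, which understates the difference of genes with low values, or as a plain fold of K562 over MOLT4 where both values are above 0. Of the 88 measured genes, 76 had the higher value in K562 and 12 in MOLT4. The median log2 ratio was 1.02, with quartiles of 0.44 and 1.74. Over the 624 measured genes on the rest of chromosome 7 the median was 0.10 and 53.7% were higher in K562, and over all 14112 measured genes it was 0.06 and 52.2%. Of the 69 genes that reached 1 FPKM in each line, 58 were higher in K562 and the median log2 ratio was 0.92, against 0.10 for the rest of chromosome 7 and 0.02 for all genes under the same filter. Of these 69, 42 were between 1.5-fold and 4-fold higher in K562, 7 were more than 4-fold higher, 16 lay within 1.5-fold and 4 were at least 1.5-fold higher in MOLT4.

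**Figure D1:**
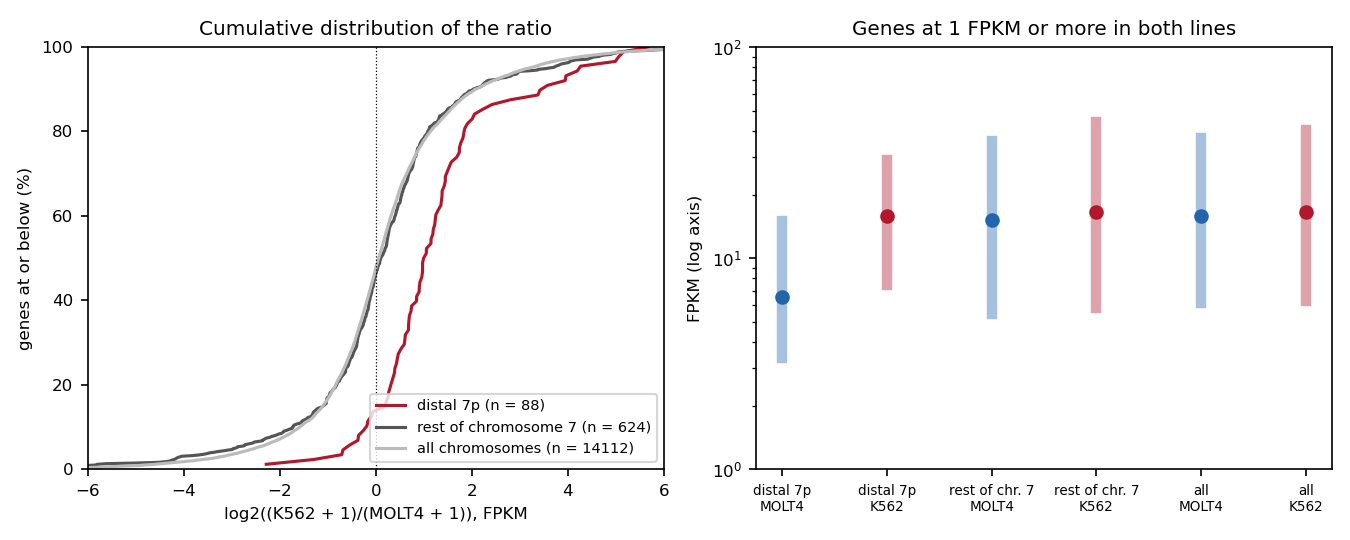
Left, cumulative percentage of measured genes at or below each log2 ratio of K562 to MOLT4 (FPKM + 1) for distal 7p, the rest of chromosome 7 and all chromosomes. Right, median (point) and quartiles (bar) of FPKM on a log axis for genes that reached 1 FPKM in each line, where the MOLT4 median of distal 7p is 6.55 FPKM and the other 5 medians lie between 15.2 and 16.5 FPKM.

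The level in each line differed in where it stood against the rest of chromosome 7. Among genes that reached 1 FPKM in each line, the median level of distal 7p was 6.55 FPKM in MOLT4 against 15.8 in K562. On the rest of chromosome 7 these medians were 15.2 and 16.5 FPKM, and over all chromosomes 15.8 and 16.5 FPKM. The K562 median of distal 7p thus lay near those of the comparison genes, and the MOLT4 median lay below them. Summed over all 321 genes, distal 7p held 2476 FPKM in MOLT4 against 4233 in K562. Most of the MOLT4 sum was ACTB, and without that gene the sums were 809 and 2301 FPKM.

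The only test in the files is the authors', a Cuffdiff q-value per gene over 18870 tested genes, for the same contrast that chose the region. In the authors' deposited table, 64 of the 110 tested genes of distal 7p had a q of 0.05 or less and count as called, against 42.2% of all tested genes. Of these, 60 were called higher in K562, where the share of all tested genes is 23.4%, and 4 higher in MOLT4, where it is 18.8%. Nothing is read from the difference in shares, because the region was picked on these ratios. If each line's value rests on 1 library, the q-values of the authors' deposited table compare those libraries and not the lines.

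**Figure D2:**
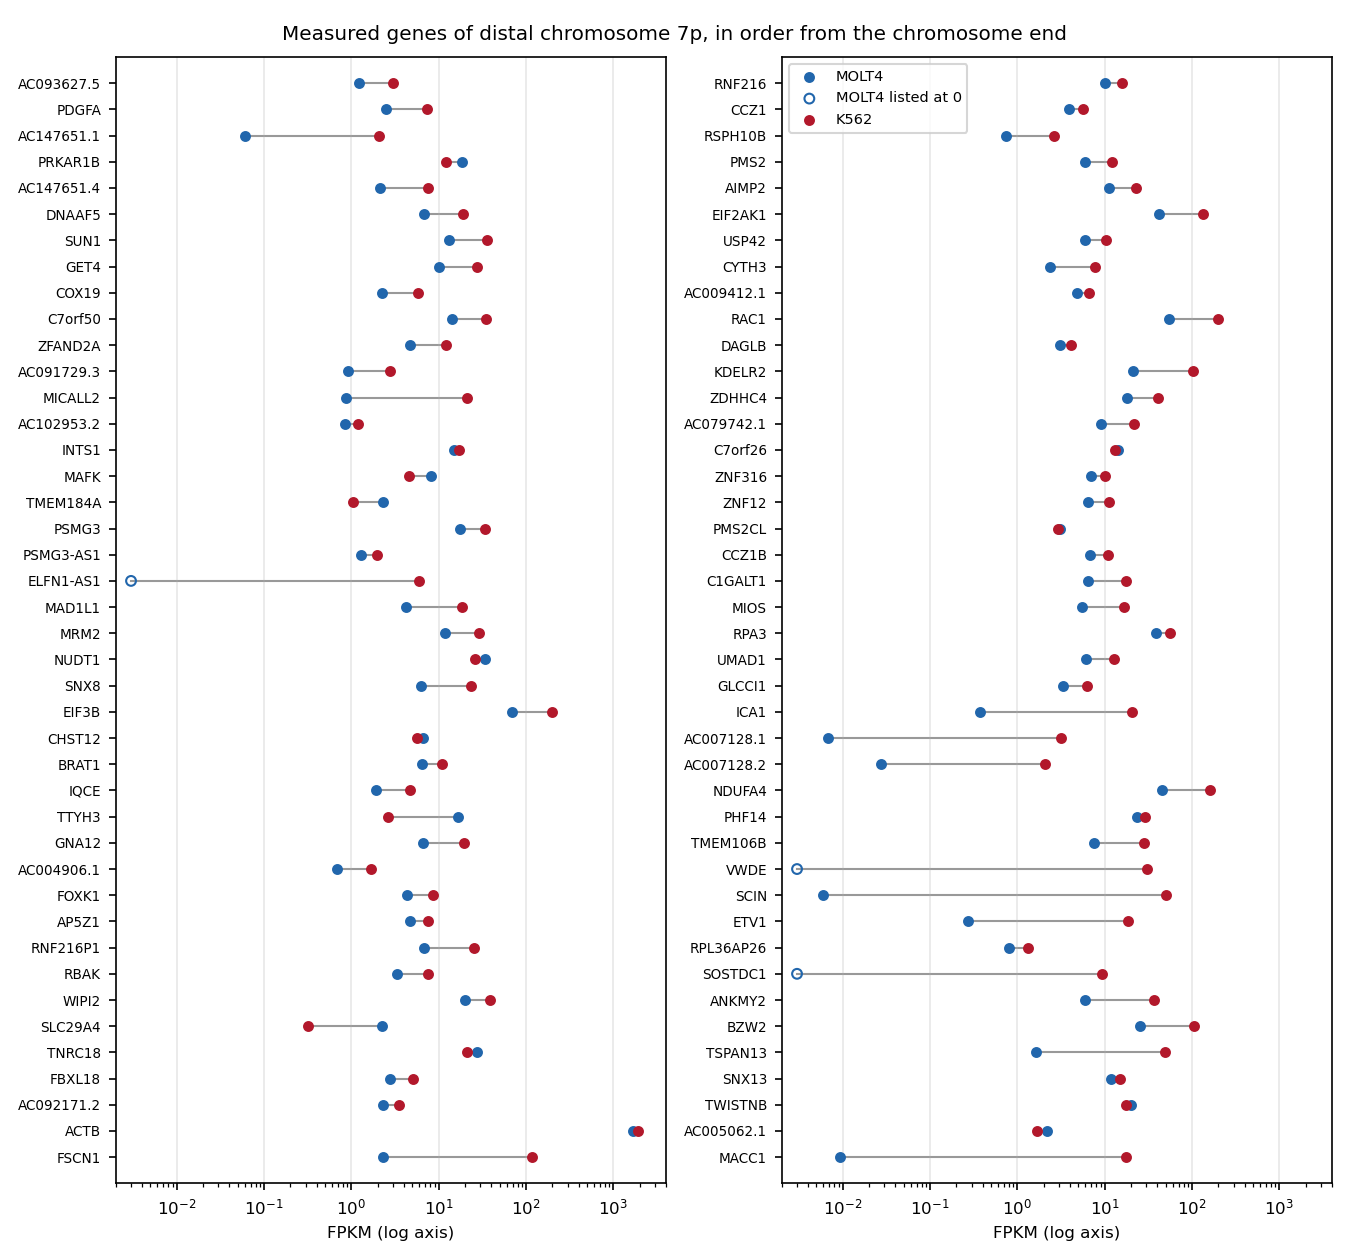
FPKM of 84 of the 88 measured genes of distal 7p in MOLT4 (blue) and K562 (red) on a log axis, 1 line per gene, ordered from the chromosome end inward. Open circles at the left edge mark 3 genes listed at 0 in MOLT4, and 12 genes have the red point to the left of the blue.

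Taken in 2 Mb steps from the chromosome end, the region fell into a gene-dense outer part and a sparse inner part. The first 4 steps held 199 of the 321 genes and 67 of the 88 measured ones, and their step medians of the log2 ratio were 1.21, 0.83, 0.68 and 0.86. In these steps 19 of 22, 7 of 10, 13 of 15 and 18 of 20 measured genes were higher in K562. Most genes there were moderately higher in K562, and 4 of the 67 had a log2 ratio of at least 2. The last 6 steps held 21 measured genes, 11 of them under 1 FPKM in MOLT4, and their joint median was 2.05. The steps from 8 to 18 Mb had medians of 2.05, 1.04, 4.99, 0.35 and 2.42 over 3, 2, 5, 1 and 7 genes, each of these 18 genes being higher in K562. The single measured gene of the step from 14 to 16 Mb was RPL36AP26, a processed pseudogene of a ribosomal protein gene, at 0.805 and 1.31 FPKM in MOLT4 and K562, an uncertain value since such copies can share reads with their parent gene. The last step, from 18 to 20 Mb, had a median of -0.17 over 3 genes, the only step of the 10 with a median under 0. On the rest of chromosome 7, 38 of 61 steps with a measured gene had a median above 0. Among the 24 of those steps with at least 10 measured genes, the medians ran from -0.88 to 1.15 and 4 were as high as the lowest of the first 4 steps of distal 7p. When all chromosomes were divided into 20 Mb pieces, distal 7p had the third highest median log2 ratio of the 154 pieces with at least 20 measured genes and the highest percentage of genes higher in K562, 86.4%. Since distal 7p was picked on these same ratios, its rank is a description and not a test.

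**Figure D3:**
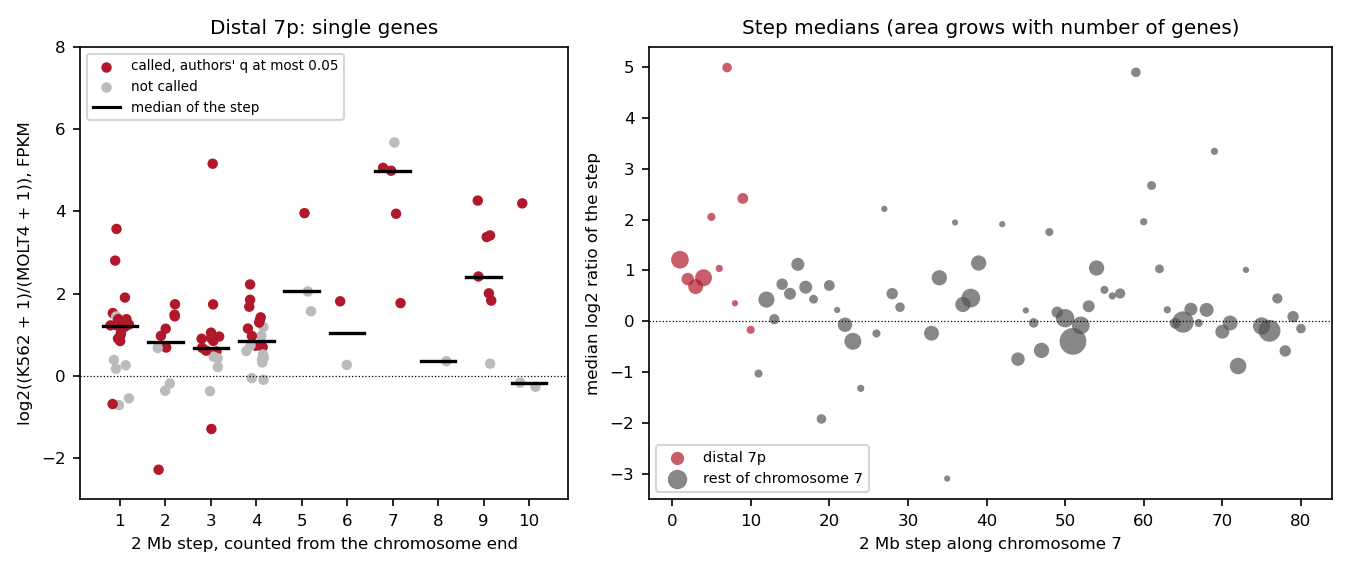
Left, log2 ratio of each measured gene of distal 7p by 2 Mb step counted from the chromosome end, coloured by the authors' call, with the step median as a black line. Right, step medians along the whole of chromosome 7 with point area growing with the number of measured genes, where the first 4 steps lie between 0.68 and 1.21 and the remainder of the chromosome scatters on both sides of 0.

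At the 20 Mb limit the values did not change evenly. Just inside it by their deposited loci lay TWISTNB, AC005062.1 and MACC1. AC005062.1 and MACC1 share 1 deposited locus, 19918980 to 20217404. In GENCODE release 29 MACC1 itself lies at 20134655 to 20217404, beyond 20 Mb, so it is counted here through the start of the shared locus. AC005062.1, a transcript that overlaps MACC1, was at 2.21 FPKM in MOLT4 against 1.67 in K562. Just outside it lay AC005083.1, listed at 0 in MOLT4 and at 6.76 FPKM in K562. The next measured genes beyond the limit were SP4, a zinc finger transcription factor, at 10.1 FPKM in MOLT4 against 4.46 in K562, and CDCA7L, a MYC-interacting nuclear protein, at 84.3 and 0.498 FPKM. Both SP4 and CDCA7L were higher in MOLT4, and genes of either direction lay on each side of the limit.

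Genes of the cytoskeleton, adhesion and migration were mostly higher in K562. Of 10 measured, 9 were listed higher in K562, and the authors' deposited table called 7 of them toward K562 and 1 toward MOLT4 and left 2 uncalled. Their median log2 ratio was 2.71, and 1.38 over the 7 that reached 1 FPKM in each line, since the other 3 passed the filter through K562. Over all 88 measured genes of distal 7p, 61.4% were called toward K562 and 3.41% toward MOLT4. Over the measured genes of all chromosomes that were tested, these shares were 25.3% and 20.8%. The calls on this and the following role lists stand beside these shares, and nothing about a role is read from them. FSCN1, which encodes the actin-bundling protein fascin (ENSG00000075618.18, chromosome 7, 5592823 to 5606655), was at 2.30 FPKM in MOLT4 against 117 in K562, a 50.9-fold difference (q = 0.000203 in the authors' deposited table). Its neighbour among the measured genes, ACTB, the cytoplasmic beta-actin gene (ENSG00000075624.16, chromosome 7, 5527147 to 5563784), was at 1666 FPKM in MOLT4 against 1932 in K562, short of a call in the authors' deposited table (q = 0.570). These 2 actin-related neighbours stood far apart in their ratio. RAC1, a small GTPase that drives lamellipodia (chromosome 7, 6374523 to 6403977), was at 53.9 FPKM in MOLT4 against 197 in K562, or 3.65-fold.

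The other members of this group included genes almost absent from MOLT4. SCIN, encoding the actin-severing protein scinderin (ENSG00000006747.15, chromosome 7, 12570577 to 12660179), was at 0.00595 FPKM in MOLT4 against 50.5 in K562. It had the highest log2 ratio of the region, 5.68, but stayed short of a call in the authors' deposited table (q = 0.0828). MICALL2, a RAB13 effector in junction assembly, was at 0.874 and 21.3 FPKM. MACC1, a gene linked to metastasis of colon cancer, was at 0.00930 FPKM in MOLT4 against 17.5 in K562 (q = 0.00411 in the authors' deposited table). SUN1, which ties the nuclear envelope to the cytoskeleton, was at 13.03 and 35.4 FPKM, and CYTH3, an exchange factor for ARF GTPases, at 2.39 and 7.67 FPKM. TMEM184A was the exception, at 2.31 FPKM in MOLT4 against 1.05 in K562 (q = 0.00941 in the authors' deposited table).

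The 5 measured genes of the list for translation and its stress control were all higher in K562. Their median log2 ratio was 1.49, and the authors' deposited table called 4 of them, 1 of which, PSMG3, is not a translation gene. EIF3B, a scaffold subunit of the translation initiation factor that loads the small ribosomal subunit (ENSG00000106263.18, chromosome 7, 2354086 to 2380745), was at 69.6 FPKM in MOLT4 against 197 in K562. EIF2AK1 encodes HRI, the kinase that slows translation when haem is short and matches globin synthesis to haem in red cell precursors (ENSG00000086232.13, chromosome 7, 6022244 to 6059230). It was at 41.4 FPKM in MOLT4 against 135 in K562, or 3.26-fold. BZW2, a regulator of start codon choice, was at 25.6 and 106 FPKM, and PSMG3, a proteasome assembly chaperone, at 17.7 and 34.0 FPKM. AIMP2, a scaffold of the aminoacyl-tRNA synthetase complex that shares a deposited locus with EIF2AK1, was at 11.2 and 22.9 FPKM, short of a call in the authors' deposited table (q = 0.261).

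On the DNA repair and replication list, 4 of 5 measured genes were listed higher in K562 with a group median of 0.69, and 3 were called in the authors' deposited table. The highest ratio, and 1 of these calls, was that of MAD1L1, a mitotic checkpoint protein of the kinetochore and not a repair factor. It was at 4.21 FPKM in MOLT4 against 18.5 in K562. PMS2, the endonuclease subunit of mismatch repair (ENSG00000122512.16, chromosome 7, 5973239 to 6009125), was at 6.02 and 12.3 FPKM, and BRAT1, a partner of BRCA1 and ATM, at 6.38 and 10.9 FPKM. RPA3, the small subunit of the single-strand DNA binding complex, was at 38.5 FPKM in MOLT4 against 55.5 in K562, short of a call in the authors' deposited table (q = 0.228). NUDT1, which removes oxidised nucleotides from the pool, was at 33.5 FPKM in MOLT4 against 25.8 in K562, short of a call in the authors' deposited table (q = 0.189). PMS2 has a near-identical relative, PMS2CL, at 3.09 and 2.93 FPKM, and reads may have been split between them.

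Most of the measured transcription and chromatin genes were listed higher in K562. Of 9 measured, 7 had the higher value in K562 and 2 in MOLT4, and the authors' deposited table called 5 toward K562 and none toward MOLT4. ETV1, an ETS family activator (ENSG00000006468.14, chromosome 7, 13891228 to 13991425), was at 0.275 FPKM in MOLT4 against 18.6 in K562. The zinc finger genes ZNF12 and RBAK were at 6.37 and 3.35 FPKM in MOLT4 and at 11.3 and 7.44 FPKM in K562. FOXK1, a forkhead transcription factor, was at 4.34 and 8.61 FPKM, and the deubiquitinase gene USP42 at 6.01 and 10.4 FPKM. MAFK, a small MAF protein that pairs with NFE2 at globin genes, was at 8.20 FPKM in MOLT4 against 4.62 in K562, short of a call in the authors' deposited table (q = 0.128). TNRC18 was at 27.6 and 21.1 FPKM, PHF14 at 23.7 and 28.7 FPKM and ZNF316 at 7.05 and 9.96 FPKM, none of them called in the authors' deposited table.

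In the group of RNA polymerase, Integrator and RNA modification genes, 2 of 4 were listed higher in K562 and the median was 0.04, close to that of all genes. MRM2, a mitochondrial ribosomal RNA methyltransferase, was at 11.9 FPKM in MOLT4 against 29.3 in K562 and was the only one called in the authors' deposited table. The Integrator subunit gene INTS1 was at 14.9 and 17.0 FPKM. The values of C7orf26, also an Integrator subunit, were 14.2 and 13.2 FPKM, and those of TWISTNB, an RNA polymerase I subunit, were 19.99 and 17.7 FPKM. These 3 genes differed by less than 1.5-fold between the lines.

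**Figure D4:**
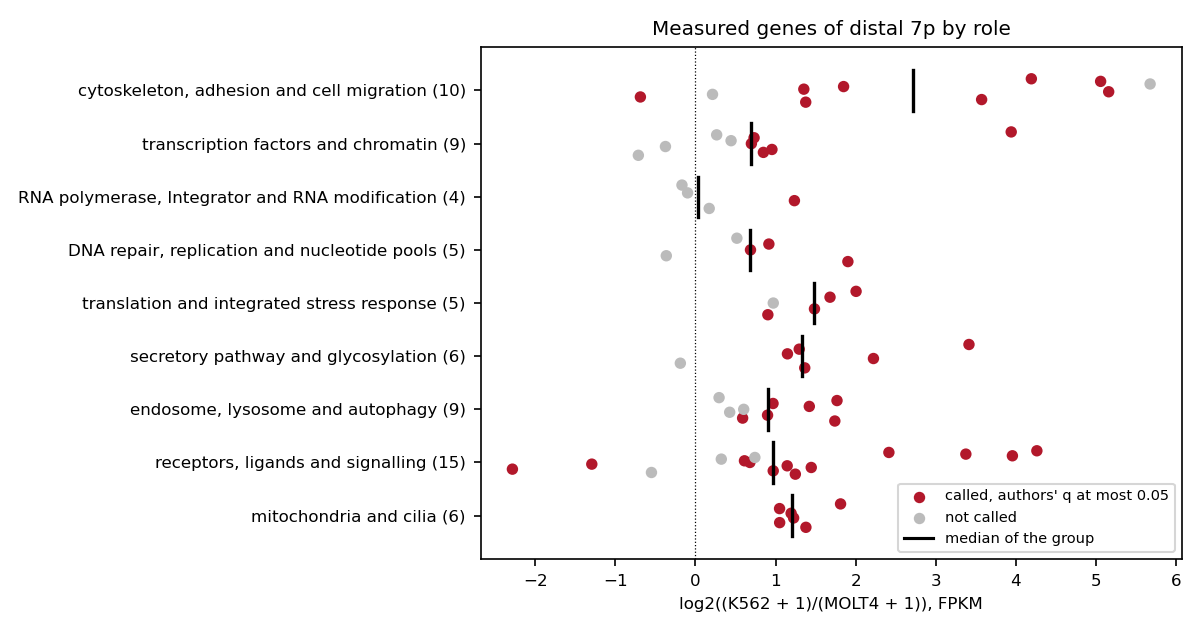
Log2 ratio of K562 to MOLT4 (FPKM + 1) for the measured genes of distal 7p on the 9 role lists, with the number of genes in brackets, coloured by the authors' call, and the group median as a black line. The cytoskeleton group has a median of 2.71, which is 1.38 without its 3 genes under 1 FPKM in MOLT4, the translation group one of 1.49 and the RNA polymerase and Integrator group one of 0.04.

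Secretory pathway and glycosylation genes were higher in K562 in 5 of 6 cases, all 5 called in the authors' deposited table, with a median log2 ratio of 1.33. KDELR2, the receptor that returns chaperones to the endoplasmic reticulum (chromosome 7, 6445953 to 6484242), was at 21.2 FPKM in MOLT4 against 102 in K562, or 4.84-fold. C1GALT1, the core O-glycan galactosyltransferase, was at 6.49 and 17.4 FPKM, GET4, which helps insert tail-anchored proteins, at 10.0 and 27.4 FPKM, and the palmitoyltransferase gene ZDHHC4 at 17.9 and 41.0 FPKM. The chondroitin sulfotransferase gene CHST12 was at 6.61 and 5.68 FPKM, short of a call in the authors' deposited table (q = 0.759).

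All 9 measured endosome, lysosome and autophagy genes were listed higher in K562, and 6 were called in the authors' deposited table. Their median log2 ratio was 0.90. TMEM106B, a lysosomal membrane protein linked to frontotemporal dementia (ENSG00000106460.19, chromosome 7, 12211241 to 12243367), was at 7.49 FPKM in MOLT4 against 27.9 in K562. SNX8, a sorting nexin, was at 6.28 and 23.3 FPKM, and MIOS, a subunit of the GATOR complex that signals amino acids to mTORC1, at 5.53 and 16.5 FPKM. WIPI2, which binds phosphoinositides on forming autophagosomes, was at 20.2 and 38.6 FPKM. UMAD1 was at 6.11 and 12.9 FPKM, AP5Z1, of the fifth adaptor complex, at 4.72 and 7.60 FPKM, and SNX13 at 11.9 and 14.8 FPKM. The near-identical genes CCZ1 and CCZ1B, which act in RAB7 activation, were at 3.89 and 6.86 FPKM in MOLT4 and at 5.57 and 10.9 FPKM in K562. Neither was called in the authors' deposited table (q = 0.355 and 0.0553), and reads may be split between these copies.

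Receptor, ligand and signalling genes held the strongest exceptions. Of 15 measured, 12 were listed higher in K562, and the authors' deposited table called 10 toward K562 and 2 toward MOLT4. The group median was 0.97. TTYH3, a membrane protein described as an anion channel (ENSG00000136295.15, chromosome 7, 2631951 to 2664802), was at 16.5 FPKM in MOLT4 against 2.60 in K562, 6.37-fold higher in MOLT4 (q = 0.000203 in the authors' deposited table). SLC29A4, the plasma membrane monoamine transporter, was at 2.23 FPKM in MOLT4 against 0.316 in K562 (q = 0.0416 in the authors' deposited table). It is the measured gene under 1 FPKM in K562, so its direction follows from the filter. PRKAR1B, a regulatory subunit of protein kinase A, was at 18.3 and 12.2 FPKM, short of a call in the authors' deposited table (q = 0.134). It shares a deposited locus with DNAAF5, a dynein assembly factor of cilia, which was at 6.75 FPKM in MOLT4 against 19.2 in K562, so genes of 1 locus had opposite directions.

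Higher in K562 in this group were genes of several pathways. GNA12, a G protein alpha subunit, was at 6.55 FPKM in MOLT4 against 19.6 in K562. PDGFA, a growth factor for mesenchymal cells, was at 2.52 and 7.36 FPKM. TSPAN13, a tetraspanin (chromosome 7, 16753535 to 16784536), was at 1.63 FPKM in MOLT4 against 49.6 in K562, and ICA1, a secretory granule protein of islets (chromosome 7, 8113184 to 8262687), at 0.376 and 20.4 FPKM. SOSTDC1, a secreted antagonist of BMP and Wnt ligands, was listed at 0 in MOLT4 and was at 9.39 FPKM in K562. ANKMY2 was at 6.01 and 36.4 FPKM, and the ubiquitin ligase gene RNF216 at 10.0 and 15.8 FPKM. RNF216 has a transcribed pseudogene, RNF216P1, at 6.82 FPKM in MOLT4 against 25.1 in K562, and reads may be split between these too.

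All 6 measured genes of the mitochondria and cilia list were called toward K562 by the authors' deposited table, with log2 ratios from 1.05 to 1.81. NDUFA4, a small subunit first assigned to respiratory complex I and later to cytochrome c oxidase (ENSG00000189043.10, chromosome 7, 10931951 to 10940256), was at 44.9 FPKM in MOLT4 against 160 in K562. COX19, a copper-handling assembly factor of cytochrome c oxidase, was at 2.24 and 5.72 FPKM. RSPH10B, a radial spoke gene with a near-identical copy, was at 0.736 and 2.60 FPKM. C7orf50 was at 14.4 and 35.0 FPKM and ZFAND2A, a stress-induced zinc finger gene, at 4.75 and 12.2 FPKM, and neither is known mainly as a gene of mitochondria or cilia.

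VWDE, a secreted protein with von Willebrand factor D and EGF domains (ENSG00000146530.14, chromosome 7, 12330885 to 12403941), is on none of the role lists and was among the 6 highest ratios. It was listed at 0 in MOLT4 and was at 30.8 FPKM in K562 (q = 0.000203 in the authors' deposited table). Like TMEM106B, SCIN and ETV1 it lies in the step from 12 to 14 Mb, which had the highest median of any step in the region. TMEM106B was the only one of these 4 above 2 FPKM in MOLT4, and all 4 were above 18 FPKM in K562. Among the 18 measured genes that are not annotated as protein-coding, 16 were listed higher in K562, with a median log2 ratio of 0.92, against 60 of 70 and 1.05 for the protein-coding ones. Whether the counting used strand is not stated in the sources used here, and antisense transcripts cannot be told apart from the genes they overlap.

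The lines carried the markers of their labels. Of 9 erythroid markers, all were listed higher in K562, where they ran from 7.05 to 279 FPKM, and 4 were at 0 in MOLT4. The 9 T lymphoblast markers ran from 71.3 to 648 FPKM in MOLT4, and in K562 the highest was CD3D at 29.7 FPKM and 2 were at 0. Markers of monocytes and macrophages summed to 159 FPKM in K562, nearly all of it LYZ at 105 FPKM and CD68 at 53.7 FPKM, and to 0.878 FPKM in MOLT4. The other markers of that list were near 0 in both lines, CD14 at 0.101 FPKM in MOLT4 and 0.126 in K562, and CSF1R at 0.0159 and 0.0559 FPKM. Of 3 endothelial markers, PECAM1 made up nearly the whole sum of 41.2 FPKM in MOLT4 against 10.2 in K562, with VWF near 0 and CDH5 at 0 in both lines. Markers of B cells summed to 2.39 and 1.76 FPKM, and those of fibroblasts to 0.408 and 3.29 FPKM. Their part in the results for distal 7p was not tested. Summed over all genes, FPKM was 627392 in MOLT4 and 676421 in K562.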

How the data were processed

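RNA sequencing of K562 and MOLT4 was deposited as 1 table of FPKM values, with 1 value per gene and line, and Cuffdiff p-values and q-values. Per the submitters' processing notes, the tools were Cuffdiff, Cufflinks 2.2.2, TopHat2 2.1.1 and CASAVA 1.8.2, with GRCh38.p13 and hg38 named as builds. Read counts were not used here, so the depth is unknown and no interval was computed. Normalization between the lines and whether replicates were combined are not given in the sources used here. A smaller deposited table repeats the 18870 tested rows. The deposited q-values differ from the Benjamini-Hochberg values of those p-values by at most 5.25e-07.

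Ratios were computed with Python 3.11.15 and pandas 2.3.3 from genes with a mean of at least 1 FPKM and a pseudocount of 1 FPKM, leaving out the 75 HIDATA and 3 FAIL rows, none of them on chromosome 7. The ratio computation was tested on simulated data. Loci are the authors'. Gene positions are those of GENCODE release 29, to which 307 of the 321 genes matched by identifier without version. The region, role lists and comparisons were chosen with earlier results of these data known. Named were members of role lists with a mean of at least 5 FPKM, the 6 highest and 6 lowest ratios, the most abundant gene of each step and the genes at the limit. PDGFA, SOSTDC1, COX19, RSPH10B, PMS2CL, RNF216P1, CCZ1, SP4 and CDCA7L were added after their values were seen. Some genes that this rule names are not reported here. Alternatives varied the pseudocount, the filters, the limit, the centring, the steps and the q threshold.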

Additional observations from a re-analysis of the deposited data

How the results depend on the processing

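The median log2 ratio of distal 7p stayed above 0 under each of the 10 alternatives, from 0.22 to 1.26, and so did its difference from the rest of chromosome 7, reported as 0.92. The region was chosen on these ratios, so their sign is no support. Some alternatives could not change a result. Keeping only tested genes left the same 88 genes, and centring could not alter the difference. The pseudocount could not alter the percentage of genes higher in K562. With a pseudocount of 0.1 FPKM the median was 1.26 and the difference 1.15. With every gene above 0 in a line included, 199 genes, the median was 0.22 and the difference 0.20, since a pseudocount of 1 FPKM compresses the ratios of the low genes that this adds. The percentage of genes higher in K562 ran from 80.7% to 87.2%. Requiring 1 FPKM in both lines, an alternative added after seeing the data, gave 84.1%. Under it the median of the cytoskeleton list was 1.38 in place of 2.71. Calls higher in K562 ran from 48 to 54 against 60 as reported. Calls higher in MOLT4 were 4 as reported, 2 at a q of at most 0.01 and 1 with 1 gene per locus. With 5 Mb steps 100% of 4 steps had a median above 0, against 90% of 10 steps of 2 Mb. No paired analysis was possible because the deposited table holds 1 value per line. The depth is unknown, so the precision of the genes near 0 cannot be given.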

Other observations

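Below the level at which genes counted as measured, distal 7p held 111 genes above 0 in at least 1 line, of which 90 were listed higher in K562 and 21 higher in MOLT4. None of them passed 0.595 FPKM in MOLT4 or 1.65 FPKM in K562. The authors tested 22 of them, and the authors' deposited table called 6 toward K562 and 1 toward MOLT4. Over all tested genes the shares are 23.4% and 18.8%, but 14103 of those 18870 genes were measured ones. These shares are thus not matched by level. No share was computed over all genes under this level, for the calls or for the direction, and nothing is read from either count. The following were chosen after their values were seen. RADIL, an effector of RAP1 in cell adhesion, was at 0.00479 FPKM in MOLT4 against 1.65 in K562, short of a call in the authors' deposited table (q = 0.105). AGMO, which cleaves ether lipids, was listed at 0 in MOLT4 and was at 0.428 FPKM in K562 (q = 0.000203 in the authors' deposited table), and the receptor gene GPR146 was listed at 0 and at 0.661 FPKM. HDAC9, a class IIa histone deacetylase, was at 0.346 and 0.406 FPKM. AHR, the aryl hydrocarbon receptor, was at 0.00243 and 0.0286 FPKM, and the mesenchymal factor gene TWIST1 was listed at 0 in MOLT4 and was at 0.136 FPKM in K562, so all 3 were low in both lines. LFNG, a glycosyltransferase that modifies Notch receptors, was at 0.0245 FPKM in MOLT4 against 0.133 in K562. AGR2 and AGR3, secretory disulfide isomerases of mucus-making cells, were listed at 0 in both lines.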
